A study of Mus musculus with 2 samples.

Results

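The nuclear receptor genes described here are 46 members of the superfamily, found in the deposited gene tables by their Ensembl identifiers and mouse gene symbols. They make up 46 of the 43346 annotated gene rows, and all 46 had a row in both libraries. They were split into 24 orphan receptors (receptors named without a known hormone), 6 retinoid receptors, 9 lipid and xenobiotic sensors, 2 thyroid hormone receptors and 5 steroid receptors. Total RNA was sequenced from forebrains of mouse embryos of strain B6NCrl at 10.5 days of development, when the forebrain wall is mostly dividing progenitor cells. For replicate 1 the forebrains of 69 embryos were pooled, and for replicate 2 those of 51 others, with both sexes in each pool and 10 ng of RNA per library. Both libraries belong to 1 group without treatment or mutation, so the comparisons are between receptors within a library and between the pools.

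Nuclear receptors are transcription factors that most often carry a DNA-binding domain of 2 zinc fingers and a ligand-binding domain. Retinoid X receptors (RXR) form heterodimers with retinoic acid, thyroid hormone, vitamin D and lipid-sensing receptors on paired DNA half-sites. Without ligand, several of these dimers recruit corepressors such as NCoR and SMRT, and ligand replaces them with coactivators. In the developing forebrain, the COUP transcription factors are known for patterning the cortex, and the tailless receptor Nr2e1 for keeping neural progenitors dividing.

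The P box, a short helix segment at the base of the first finger, makes the contacts that set which half-site is read. Its 18 coding bases in the leading finger-coding transcript of 11 members, from GENCODE M21 transcripts on GRCm38, are printed here to show which forms of the segment the most abundant members carry and how some lower members differ. The first 6 lines are the receptors over 30 TPM in both libraries (TPM, a share of all transcripts after adjustment for length), and the capitals mark the 3 codons by which P boxes are usually told apart.
Nr2e1: tgcGACGGCtgctccGGA
Nr1h2: tgtGAAGGCtgcaaaGGC
Nr2f1: tgcGAGGGCtgcaaaAGT
Nr2f2: tgcGAGGGCtgcaagAGC
Nr2f6: tgcGAGGGCtgcaagAGT
Rxrb: tgcGAGGGCtgcaagGGT
Nr4a2: tgtGAGGGCtgcaaaGGT
Esrra: tgtGAGGCCtgcaaaGCC
Nr2e3: tgcAATGGCtgcagtGGC
Esr2: tgtGAAGGAtgtaagGCC
Nr3c2: tgcGGCAGCtgcaaaGTC

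In these 11 stretches the marked codons read glutamate, glycine and glycine in Nr1h2, Rxrb and Nr4a2. The 3 COUP factors Nr2f1, Nr2f2 and Nr2f6 share a serine codon in the last place. Nr2e1 begins with aspartate in place of glutamate, and its photoreceptor relative Nr2e3 with asparagine. Both also have serine in the unmarked codon just before the last capitals, which is lysine in the other 9 stretches. Esrra carries alanine in the last 2 marked places and the estrogen receptor Esr2 in the last only. The mineralocorticoid receptor Nr3c2 carries glycine, serine and valine in the marked places. The finger pattern was found in an annotated coding sequence of 44 of the 46 members; Nr0b1 and Nr0b2, which are known to lack this domain, had none. Over the 43 members whose stretch was listed, which leave out the glucocorticoid receptor Nr3c1, 27 genes had the glutamate, glycine and glycine form. These 27 held 49.6% of all member TPM in replicate 1 and 50.4% in replicate 2. This share and those that follow count all transcripts of each gene, also those that do not code for the fingers. The 3 COUP factors with their serine form held 31.4% and 30.5% in replicates 1 and 2, and the 3 genes of the aspartate form 15.3% and 15.9%, with Nr2e1 alone among them above 0 counts. Nr3c2 and Pgr, the 2 listed genes with the glycine, serine and valine form, held 0.120% and 0.112%, a share that does not count Nr3c1, while the whole steroid class held 1.01% and 0.947%.

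Rarb, the retinoic acid receptor beta gene, is known in mice for a promoter that retinoic acid itself activates through a pair of half-sites. This pair was present in the RefSeq promoter table (GRCm38.p6), as the half-site GGTTCA, 5 other bases and the half-site AGTTCA, searched on both strands of windows from 250 bases before to 50 bases after each start. The capitals mark the half-sites in the 30 bases at chr14:16575506-16575535 on the minus strand.
Rarb: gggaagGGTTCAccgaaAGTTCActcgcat
The pair spans 53 to 37 bases before the RefSeq start, and in the models of GENCODE M21 it lies inside the first exon of Rarb-201, which begins further upstream. Among 32851 promoters in the table, 2 held this pair with this spacing, a share of 0.00609%, and Rarb was the only member. The general half-site AGGTCA was found in 12 of the 63 promoters listed for 42 members, which is 19%, against 16.3% of all promoters in the table.

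The libraries held 41537304 and 38012457 expected counts in annotated genes for replicates 1 and 2, of which 32606 and 30759 fell on nuclear receptors. The tissue label was set beside markers, and 8 of 8 genes of the forebrain neuroepithelium were at 1 TPM or more in both libraries. No markers of other brain regions were looked at, so these genes do not tell the forebrain from those regions. The tissue also held other cells: 7 of 7 endothelial, 8 of 8 mesenchymal or neural crest and 7 of 7 erythroid markers reached 1 TPM in both libraries. So did 6 of 7 surface ectoderm and 5 of 6 macrophage markers. In such bulk tissue, fewer cells of a type and less RNA per cell cannot be told apart.  Values below are given per library or as mean ± SD (n = 2). With 2 libraries of 1 group no test between conditions exists, so differences are set against the spread of the libraries.

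At 1 TPM or more in both libraries, 27 of the 46 receptors were detected and 19 were under 1 TPM in both. The detected share of 58.7% lay near the 57.3% of all protein-coding genes and above the 32.4% of all annotated genes, so the share itself says little about receptors. The median receptor stood at 1.48 TPM in replicate 1 and 1.58 TPM in replicate 2, against 3.27 and 3.16 TPM for all protein-coding genes. Receptor RNA was unevenly divided. Nr2e1, Nr1h2, Nr2f1 and Nr2f2, the 4 highest, made up 51.5% ± 0.5 of the summed TPM of all 46, and the 7 highest made up 74.4% ± 0.1.

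**Figure D1:**
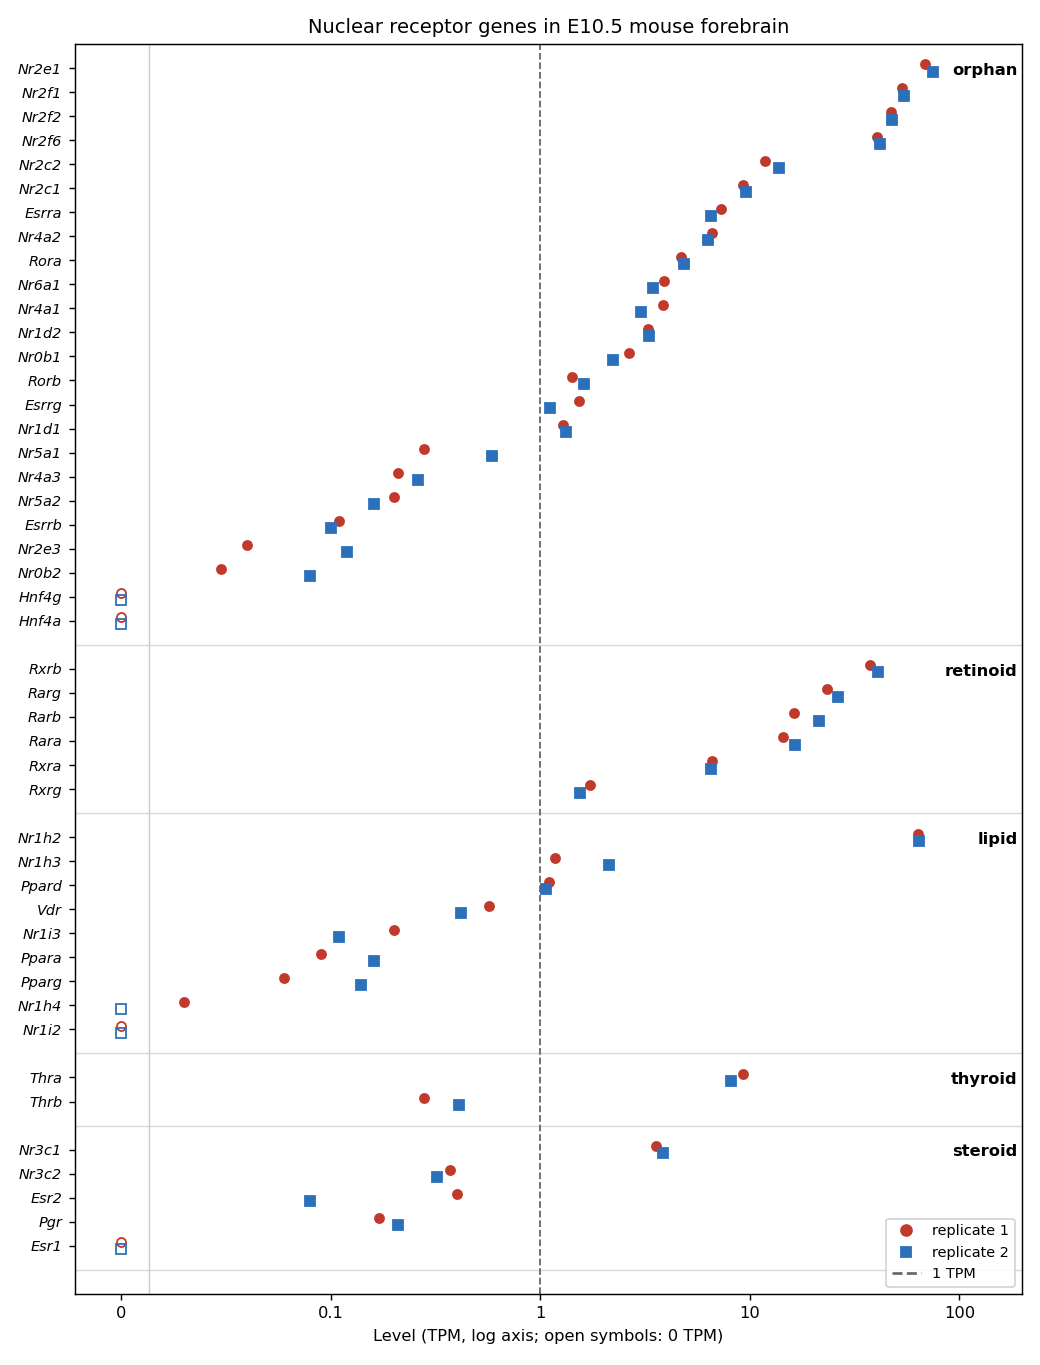
Level of each of the 46 nuclear receptor genes in E10.5 forebrain in TPM on a log axis, with receptors grouped by class and the libraries shown as separate symbols. The 6 receptors over 30 TPM in both libraries are Nr2e1, Nr2f1, Nr2f2, Nr2f6, Rxrb and Nr1h2, and 4 genes (Hnf4g, Hnf4a, Nr1i2 and Esr1) were at 0 in both, drawn as open symbols.

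The orphan receptors held 59.2% ± 0.6 of all receptor TPM, and 16 of the 24 were detected. The NR2 group held 230.4 of 267.6 orphan TPM in replicate 1 and 242.4 of 277.4 in replicate 2. Nr2e1, known as tailless or TLX, lies on the minus strand at chr10:42561963-42583632 (GRCm38). It had the highest level of any receptor at 68.62 TPM in replicate 1 and 74.86 TPM in replicate 2, above the other receptors in both libraries. Of all protein-coding genes, 88.8% had a lower mean. The COUP transcription factors followed among the orphans. Nr2f1 (COUP-TFI, chr13:78188973-78199757, minus strand) stood at 52.96 and 54.37 TPM, and Nr2f2 (COUP-TFII, chr7:70351944-70366735, minus strand) at 47.09 and 47.87 TPM in replicates 1 and 2. Nr2f6 (EAR2, chr8:71374123-71381960, minus strand) had 40.58 and 41.78 TPM, and 54.4% of its exonic bases also lie in exons of Ocel1 on the other strand, which stood at 3.43 and 3.02 TPM. The libraries of these 4 orphans did not overlap with each other in level. Together the 3 COUP factors summed to 140.6 TPM in replicate 1 and 144 TPM in replicate 2.

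The testicular receptors, repressors on direct repeats, were lower. Nr2c2 (TR4) had 11.82 and 13.82 TPM, and Nr2c1 (TR2) 9.27 and 9.56 TPM, in replicates 1 and 2. Exons of Nr2c2 share 4590 bases with exons of Mrps25 on the other strand, which stood at 86.64 and 85.16 TPM. The sources used here do not say whether counting used strand, and without strand the reads of such partners cannot be told apart. In all, 11 members share exonic bases with a gene on the opposite strand. Every overlap reported here is over all exon models of GENCODE M21. The deposited counts rest on annotation M4 and may not have used all of these models. The photoreceptor receptor Nr2e3 had 1 and 2 counts, and the hepatocyte factors Hnf4a and Hnf4g had none in either library. Hepatocyte and endoderm markers stood near the floor beside them, with 1 of 6 at 1 TPM or more, a summed 4.90 TPM in replicate 1 and 3.68 TPM in replicate 2, and Fgb at 0 in both. For Hnf4a a count of 0 allows up to 0.0542 TPM in replicate 1 and 0.0601 TPM in replicate 2, at a floor of 3 counts per library.

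All 4 orphan receptors of the circadian clock loop were detected, at low levels. Rora, an activator that competes with the Rev-erb repressors for the same DNA element, had 4.69 and 4.87 TPM. Nr1d2 (Rev-erb beta) had 3.25 and 3.32 TPM, Rorb 1.42 and 1.62 TPM, and Nr1d1 (Rev-erb alpha) 1.29 and 1.32 TPM, each in replicates 1 and 2. With 0.1 added to each TPM value, Nr1d2 was 2.41 times Nr1d1, and the libraries of the pair did not overlap. The last exons of Nr1d1 (chr11:98767932-98775333, minus strand) and Thra share 263 bases on opposite strands, and Thra was the higher of these neighbours.

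The estrogen-related receptors act on genes of mitochondrial energy metabolism without a known hormone. Esrra was highest at 7.25 and 6.55 TPM, Esrrg had 1.53 and 1.11 TPM, and Esrrb, a gene of pluripotent and trophoblast cells, was under 1 TPM with 13 and 11 counts. Among the NR4A receptors, which are immediate early genes, Nr4a2 (Nurr1, needed for midbrain dopamine neurons) had 6.57 and 6.31 TPM. Nr4a1 had 3.85 and 3.04 TPM, and Nr4a3 was under 1 TPM at 21 and 15 counts. Nr4a2 was above Nr4a1 in each library, by a log2 ratio of 0.89 ± 0.19 on TPM with 0.1 added.

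Nr6a1 (GCNF), known for silencing pluripotency genes in the early embryo, had 3.88 TPM in replicate 1 and 3.45 TPM in replicate 2. Nr0b1 (Dax1), a receptor without zinc fingers that represses Nr5a1 and other receptors, had 2.64 and 2.23 TPM. Their relatives were under 1 TPM: Nr5a1 (steroidogenic factor 1) had 22 and 41 counts, Nr5a2 had 9 and 8 counts, and Nr0b2, the bile acid responsive repressor of liver, had 1 and 2 counts in replicates 1 and 2.

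Every one of the 6 retinoid receptors was detected. Rxrb led the RXR genes at 37.47 and 40.69 TPM, with Rxra at 6.61 and 6.55 TPM and Rxrg, known from differentiating striatal and motor neurons, at 1.73 and 1.54 TPM. With 0.1 added to each TPM value, Rxrb was 5.86 times Rxra, and Rxra 3.86 times Rxrg, and no libraries of these pairs overlapped. The retinoic acid receptors lay closer together. Rarg had 23.32 TPM in replicate 1 and 26.43 TPM in replicate 2, Rarb 16.28 and 21.33 TPM, and Rara 14.35 and 16.49 TPM. Rarb was above Rara within each library, but its replicate 1 was below the Rara value of replicate 2, so the libraries of the 2 genes overlapped. The 3 RAR genes summed to 53.95 and 64.25 TPM and the 3 RXR genes to 45.81 and 48.78 TPM in replicates 1 and 2. Exons of Rarb (chr14:16430839-16819156, minus strand) share 1793 bases with exons of Top2b on the other strand, which stood at 67.37 and 70.01 TPM. The deposited values of Rarb rest on 1 transcript of 3034 bases, against 5265 exonic bases over all M21 models. Whether the shared bases lie in that transcript was not tested.

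Of the 9 lipid and xenobiotic sensors, 3 were detected, and Nr1h2 held nearly all of the class. Nr1h2 (LXR beta, the oxysterol receptor of many tissues, chr7:44549616-44553951, minus strand) had 63.80 TPM in replicate 1 and 64.44 TPM in replicate 2. Its relative Nr1h3 (LXR alpha, typical of liver and macrophages) had 1.17 and 2.13 TPM. The log2 ratio of Nr1h2 over Nr1h3, on TPM with 0.1 added, was 5.25 ± 0.56, a ratio of 38.2. Ppard, the widely expressed PPAR, had 1.10 and 1.06 TPM, while Ppara, of fatty acid oxidation, had 5 and 10 counts and Pparg, of adipocytes, had 3 and 6 counts. The vitamin D receptor Vdr was under 1 TPM with 67 and 45 counts. By the posterior mean TPM, another deposited estimate, Vdr had 1.14 in both libraries. Nr1i3, the constitutive androstane receptor of liver, had 16.2 and 7.70 estimated counts, and 74.9% of its exonic bases also lie in Tomm40l exons on the other strand. The bile acid receptor Nr1h4 had 1 count in replicate 1 and none in replicate 2, and the xenobiotic receptor Nr1i2 had none.

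The thyroid hormone receptors were represented by Thra. Thra (chr11:98740638-98769006, plus strand) had 9.23 and 8.12 TPM, and Thrb 0.28 and 0.41 TPM, in replicates 1 and 2. Thra was 19.9 times Thrb on the scale of TPM with 0.1 added. Its transcripts divided between the main products. Thra-201, which codes for 492 codons and matches in length the alpha 2 form known not to bind hormone, had 5.20 and 5.10 TPM. Thra-202, of 410 codons and the length of the hormone-binding alpha 1 form, had 3.27 and 2.61 TPM. The alpha 2 length thus made up 56.4% of Thra TPM in replicate 1 and 62.9% in replicate 2, above the 35.5% and 32.2% of the alpha 1 length.

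Among the 5 steroid receptors the glucocorticoid receptor gene Nr3c1 alone was detected, at 3.58 TPM in replicate 1 and 3.86 TPM in replicate 2. Its close relative Nr3c2, which binds mineralocorticoids and glucocorticoids, had 0.37 and 0.32 TPM from 20 and 23 counts. Pgr, the progesterone receptor, had 22 and 25 counts. Esr2 had 33 counts in replicate 1 and 6 in replicate 2, while Esr1 had none, which allows up to 0.0418 and 0.0464 TPM in replicates 1 and 2. The steroid class summed to 4.52 and 4.47 TPM, or 1.01% and 0.947% of all receptor TPM.

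By class, the median gene stood at 17.1 ± 2.5 TPM for retinoid receptors, 4.51 ± 0.35 TPM for thyroid hormone receptors, 2.79 ± 0.22 TPM for orphans, 0.29 ± 0.11 TPM for steroid receptors and 0.18 ± 0.03 TPM for lipid sensors. Each SD is that of the class median over the libraries, not over genes. These medians hide 1 high gene in several classes, as with Nr1h2. The thyroid class has only 2 genes, so its median is the midpoint of Thra and Thrb, and neither gene stood there. In the order of the 27 detected receptors by mean level, 11 of the 26 neighbouring pairs overlapped between libraries. Among the 9 highest receptors, Nr2f6 and Rxrb overlapped, as did Rarb and Rara, and the other neighbours among these 9 were separate.

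Relatives of 1 subfamily were set against each other in 24 pairs, on log2 ratios of TPM with 0.1 added. In 17 pairs the first gene was higher in both libraries, in 6 the second, and in 1 (Hnf4a with Hnf4g) both were at 0. Which gene came first was set when the pairs were listed, so these counts reflect that order and are not a trait of the receptors. Both genes were detected in 13 of the pairs. The smallest ratio among these 13 was that of Nr2f1 over Nr2f2, at 0.18 ± 0.01. This order depended on the adjustment for length: expected counts scaled by library total alone, with no length adjustment, gave -0.50, and Nr2f2 then ranked above Nr2f1. Rora over Rorb was 1.59 ± 0.09 with the adjustment and 0.09 without it, where the libraries disagreed in direction. The finger coding stretches of Nr2f1 and Nr2f2 are alike in 152 of 168 bases and 55 of 56 residues, so these proteins differ in this domain by 1 residue. Nr2f1 over Nr2f6 was 0.38 with an SD under 0.01, with 50 of 56 residues shared. Rarg was above Rara by 0.69 ± 0.01 and above Rarb by 0.41 ± 0.15.

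**Figure D2:**
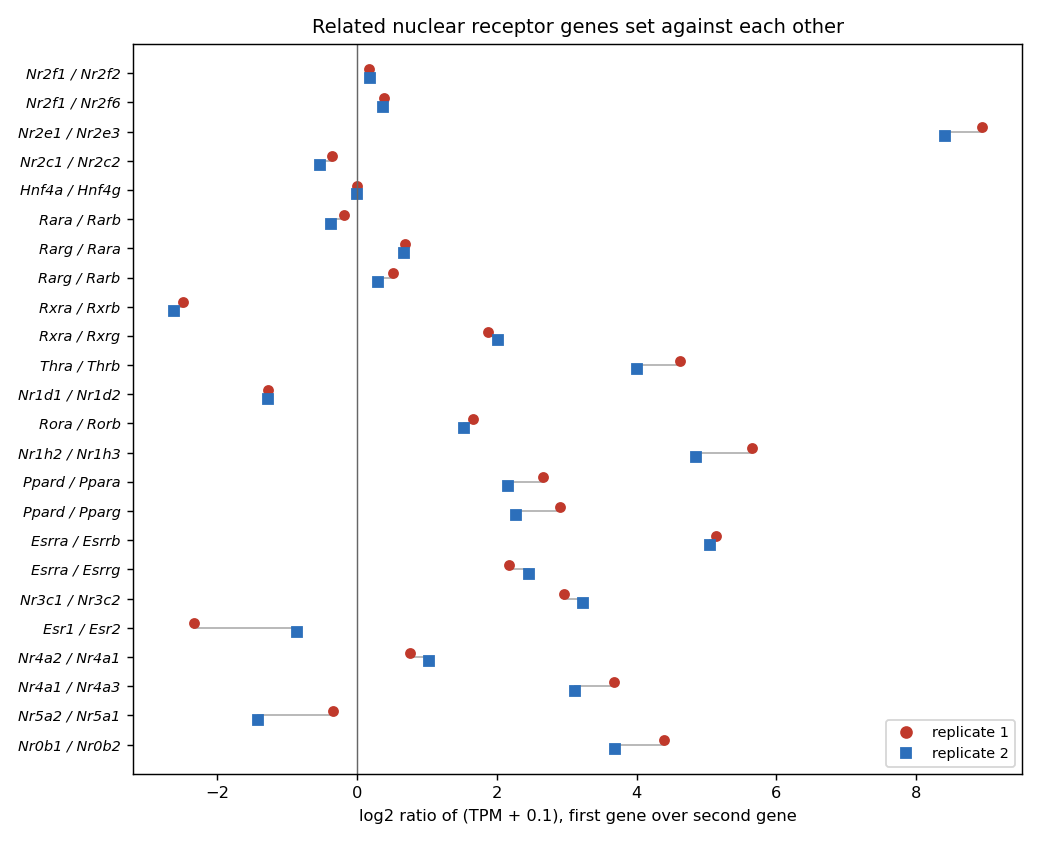
Log2 ratio of TPM with 0.1 added for 24 pairs of related receptors, first gene over second gene, with each library as its own symbol. Points right of 0 mean a higher first gene: the ratio of Nr2e1 over Nr2e3 lies farthest right at 8.68 on average, and Nr2f1 and Nr2f2 lie near 0.

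Of the 14 receptors with a mean of 5 TPM or more and several annotated transcripts, 13 had the same leading transcript in both libraries. Nr4a2 was the exception: Nr4a2-201 led in replicate 1 with 44.9% of its TPM, against 16.3% in replicate 2, while Nr4a2-203 had 36.6% and 54.7%. Both code for 598 codons, so the protein is of the same length. In 3 receptors (Rxra, Nr2e1 and Nr2f6) the leading transcript held over 90% of the gene in both libraries. Nr2f1 divided more. Its full-length Nr2f1-201, of 420 codons, had 48.9% and 44.0% of the TPM, and the shorter Nr2f1-202 and Nr2f1-205, of 273 and 263 codons, do not code for the fingers. By expected counts Nr2f1-201 had 2228 and 1855 in replicates 1 and 2, against 283.9 and 335.2 for Nr2f1-202, a short model of 841 bases. In Nr2f2, the model Nr2f2-202 of 281 codons without fingers had 31.3% of TPM in replicate 1 and 27.9% in replicate 2.

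**Figure D3:**
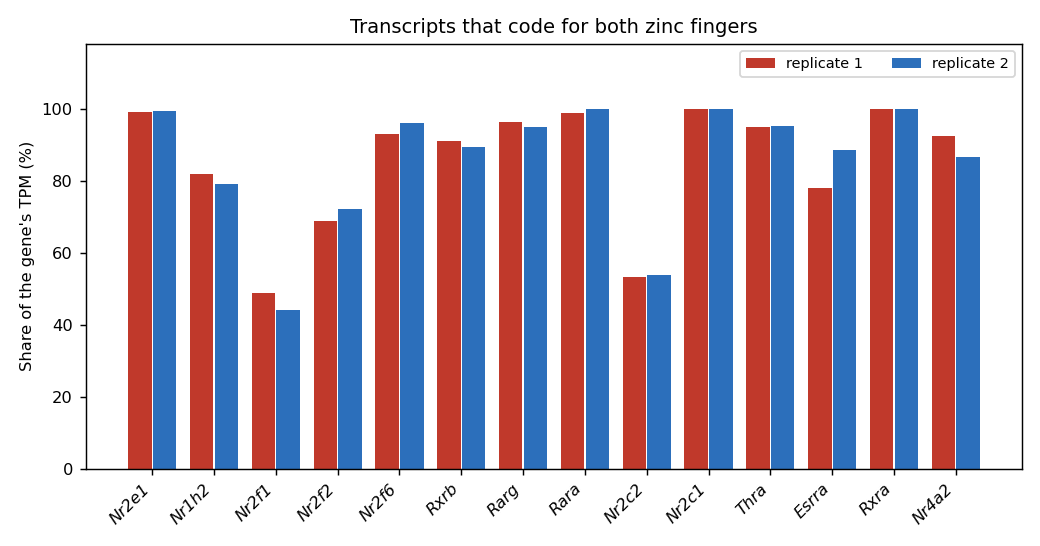
Share of each gene's TPM in transcripts whose annotated coding sequence holds both zinc fingers, in percent, for the 14 receptors with a mean of at least 5 TPM and more than 1 transcript, with bars for each library. Nr2f1 is lowest at 48.9% in replicate 1 and 44.0% in replicate 2, Nr2c2 next at 53.2% and 53.9%, and Rxra and Nr2c1 are at 100%.

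Rarg was carried by Rarg-201 of 458 codons, at 62.2% and 56.7% of its TPM in replicates 1 and 2, and by Rarg-202 of 447 codons at 34.0% and 38.1%. RAR gamma isoforms of these lengths are known to differ at the start of the protein. Rxrb was carried by Rxrb-202 of 410 codons at 47.0% and 48.4% and Rxrb-201 of 524 codons at 44.0% and 41.1%. Nr1h2 divided between Nr1h2-204 of 446 codons at 42.2% and 48.3%, and Nr1h2-203 of 443 codons at 31.4% and 27.5%. The leading Nr2c2 model, Nr2c2-203, is a fragment of 1065 bases with 148 and 149 counts, while the full-length Nr2c2-201 of 596 codons had 1117 and 925.2 counts.

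Between the pools, 32 receptors averaged at least 20 counts and were compared as replicate 1 over replicate 2. None was past 1.5-fold higher in replicate 1, against 3.87% of all annotated genes with that count, and 2 were past 1.5-fold lower, against 1.91%. Both are low in count: 11 of the 32 receptors had under 200 counts, a range where 18.6% of all genes were past 1.5-fold in either direction. Nr1h3 had 54 counts in replicate 1 and 88 in replicate 2, a ratio of 0.56 with a 95% counting interval of 0.39 to 0.79. Nr5a1 had 22 and 41 counts, a ratio of 0.49 (0.28 to 0.84). Pituitary and steroidogenic markers stood at a summed 7.34 and 9.83 TPM in replicates 1 and 2, with 1 of 7 at 1 TPM or more in both libraries, and Pou1f1 was at 0 in replicate 1. Pomc carried most of that sum at 4.97 and 7.20 TPM, while Star was higher in replicate 1 at 1.55 TPM, against 0.98 TPM in replicate 2, and is among 3 of the 7 markers with a scaled count higher there. The part of these markers in the Nr5a1 ratio was not tested. Macrophage markers, beside Nr1h3, summed to 42.25 and 41.45 TPM, with 5 of 6 at 1 TPM in both libraries and none at 0. Esr2, at a mean of 19.5 counts, was just under the count limit and had a ratio of 4.69 (2.07 to 14.6).

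The retinoic acid receptors were all lower in replicate 1, within 1.5-fold. Rarb had a ratio of 0.77 (0.72 to 0.83), Rara of 0.86 (0.78 to 0.93) and Rarg of 0.91 (0.85 to 0.97), and none of these counting intervals reached 1. These intervals cover counting error only, not differences between pools of embryos. Nr4a1 went the other way, with a ratio of 1.28 (1.05 to 1.56). Over all genes in the range over 200 counts, the log2 ratio had an SD of 0.165. On that scale Rarb was at -0.38, Rara at -0.22 and Rarg at -0.14. The share of all genes whose interval leaves out 1 was not counted. Optic vesicle and pigment epithelium markers moved the same way, with a summed 19.43 TPM in replicate 1 and 48.94 TPM in replicate 2. All 7 optic markers were lower in replicate 1, 5 of them past 1.5-fold, 6 of 7 were at 1 TPM or more in both libraries, and none was at 0. Neuron markers went the other way, at a summed 351.9 and 269.6 TPM in replicates 1 and 2, and erythroid markers summed to 17384 and 12875 TPM, with every gene of both lists at 1 TPM or more in both libraries. The part of these cell types in the receptor ratios was not tested. The ratio of Nr2e1 was 0.92 (0.89 to 0.96), and those of Nr1h2, Nr2f1, Nr2f2 and Nr2f6 lay between 0.96 and 1.05.

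**Figure D4:**
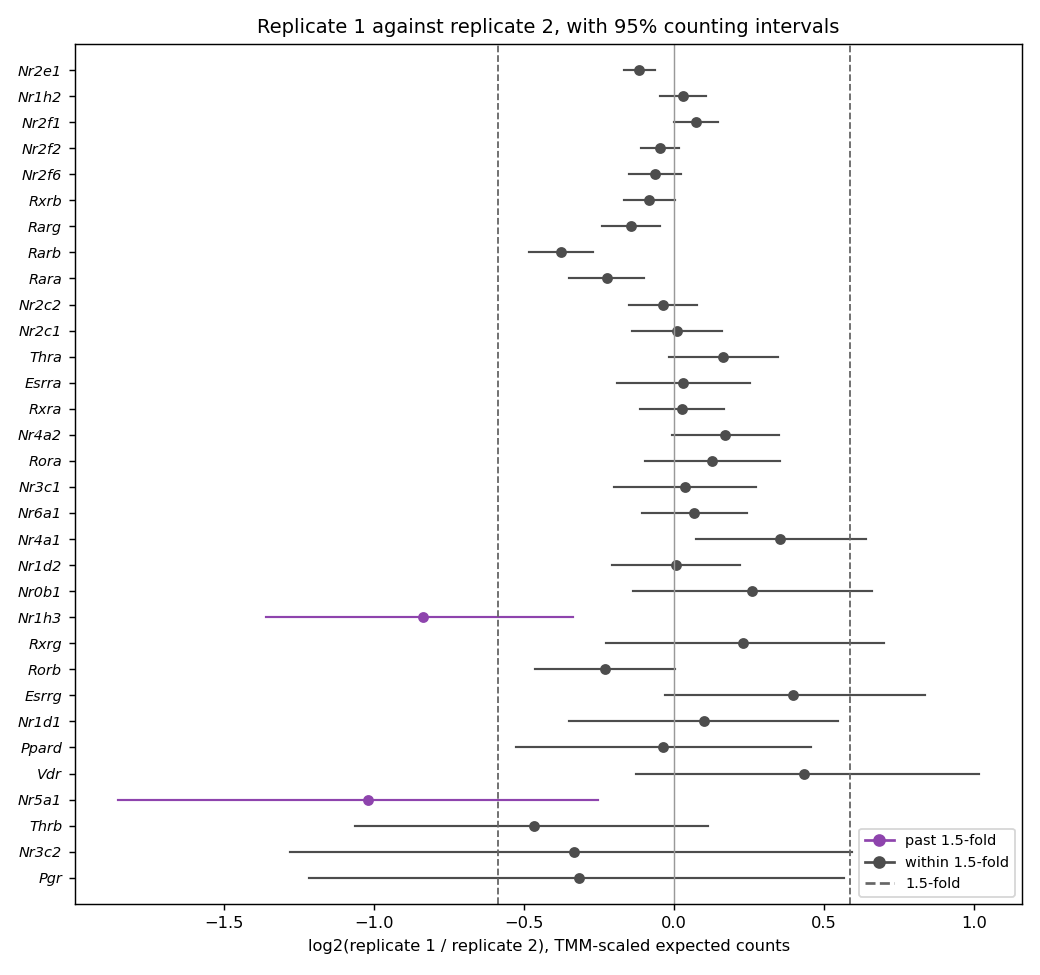
Log2 ratio of replicate 1 over replicate 2 in TMM-scaled expected counts for the 32 receptors with a mean count of 20 or more, ordered from the highest mean TPM down, with bars for 95% counting intervals. Nr1h3 and Nr5a1 lie past the dashed 1.5-fold line on the lower side, and Rarb, Rara and Rarg lie left of 0.

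Genes that receptors work with were followed in 11 lists of cofactors, ligand handling and targets. Of 107 distinct measured genes, 82 were at 1 TPM or more in both libraries. The same limit was reached by 57.3% of all protein-coding genes. Per list the share ran from 20% for vitamin D to 100% for coactivators and chaperones. Thyroid hormone handling and steroid enzymes lay at 50% and PPAR targets at 57.1%. A share near that of all protein-coding genes says little about receptor partners. Of the coactivators, 14 of 14 measured genes were detected. Med1, the mediator subunit that docks on liganded receptors, had 66.28 and 66.31 TPM, the acetyltransferase Kat2a 64.57 and 67.00 TPM, the PGC-1 relative Pprc1 48.63 and 52.92 TPM, and the methyltransferase Carm1 48.65 and 50.28 TPM in replicates 1 and 2. Of the corepressors, 17 of 18 were detected. The deacetylases Hdac2, Hdac1 and Hdac3 had 261.7, 249.2 and 152.2 TPM in replicate 1, against 269, 273.6 and 154.6 TPM in replicate 2, and the corepressor Ncor1 had 109.4 and 106.5 TPM. Hr, a corepressor of thyroid hormone and vitamin D receptors, was under 1 TPM at 28 and 9 counts.

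For retinoic acid receptors, 8 of 12 genes of retinoid handling were detected. Crabp1 and Crabp2, which bind retinoic acid in the cell, had 1010 and 705.7 TPM in replicate 1, against 902.8 and 739.2 TPM in replicate 2. The retinol transporter gene Stra6 had 27.91 and 31.64 TPM and the synthesizing enzyme Aldh1a3 25.72 and 26.06 TPM in replicates 1 and 2, while Aldh1a2, Cyp26b1 and Cyp26c1 were under 1 TPM in both. Another synthesizing enzyme, Aldh1a1, had 0.76 TPM in replicate 1 and 7.75 TPM in replicate 2, from 41 and 378 counts, the only gene of this list past 1.5-fold between the pools and lower in replicate 1, as were Rarb, Rara and Rarg. Its part in the receptor ratios was not tested. For thyroid hormone receptors, 4 of 8 genes were detected, among them Crym, a binding protein of the hormone, at 122.3 and 106.7 TPM, the transporter Slc16a10 at 2.58 and 2.94 TPM, and the inactivating deiodinase Dio3 at 1.91 and 2.18 TPM. The activating deiodinases Dio1 and Dio2 had 0 and 25 counts in replicate 1 and 0 and 5 in replicate 2, and Slco1c1 and Ttr were under 1 TPM.

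Beside the clock receptors, 13 of 15 clock genes were detected, led by the repressors Cry1 at 26.13 and 26.65 TPM and Cry2 at 23.04 and 21.75 TPM. Nfil3 had 11.31 and 13.04 TPM and Tef 11.65 and 11.57 TPM, and Npas2 was under 1 TPM. Beside Nr1h2, 6 of 8 sterol genes were detected. Srebf1, the lipogenic factor that LXR is known to induce, had 55.34 and 49.63 TPM, the exporter Abcg1 9.91 and 8.66 TPM, and the oxysterol enzymes Cyp27a1 8.85 and 9.86 TPM and Cyp46a1 7.98 and 8.35 TPM. Ch25h was under 1 TPM. Beside Ppard, 4 of 7 PPAR targets were detected, among them the lipid droplet protein Plin2 at 62.39 and 62.32 TPM, Angptl4 at 18.02 and 19.04 TPM and Cpt1a at 4.57 and 4.73 TPM. Pdk4 was under 1 TPM, and the adipocyte gene Fabp4 had no count.

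Steroid receptor chaperones were far above the receptors they fold. All 7 were detected, with Hsp90ab1 at 1849 and 1872 TPM, Hsp90aa1 at 1046 and 1065 TPM, Fkbp4 at 695.2 and 736.7 TPM and Ptges3 at 622.5 and 657.8 TPM in replicates 1 and 2. Of the steroid enzymes, 4 of 8 were detected, with Hsd17b10 at 172.1 and 175.2 TPM, Srd5a1 at 14.39 and 15.15 TPM, the glucocorticoid-inactivating Hsd11b2 at 13.23 and 10.49 TPM and Hsd3b7 at 5.19 and 5.60 TPM. Cyp11a1, Cyp19a1 and the glucocorticoid-activating Hsd11b1 had 3 counts or fewer in each library. Of the glucocorticoid targets, 6 of 7 were detected, led by Tsc22d3 at 79.46 and 83.26 TPM, Fkbp5 at 27.38 and 25.61 TPM, Dusp1 at 20.67 and 18.77 TPM and Sgk1 at 15.04 and 18.21 TPM. Klf9 was under 1 TPM. These genes have other inducers too, and their levels do not measure receptor activity. For vitamin D, 1 of 5 genes was detected: the uptake receptor Lrp2 had 2.77 and 2.82 TPM, Cyp2r1 had 1.01 and 0.87 TPM, and Cyp24a1, Cyp27b1 and Gc had 8 counts or fewer in each library.

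**Figure D5:**
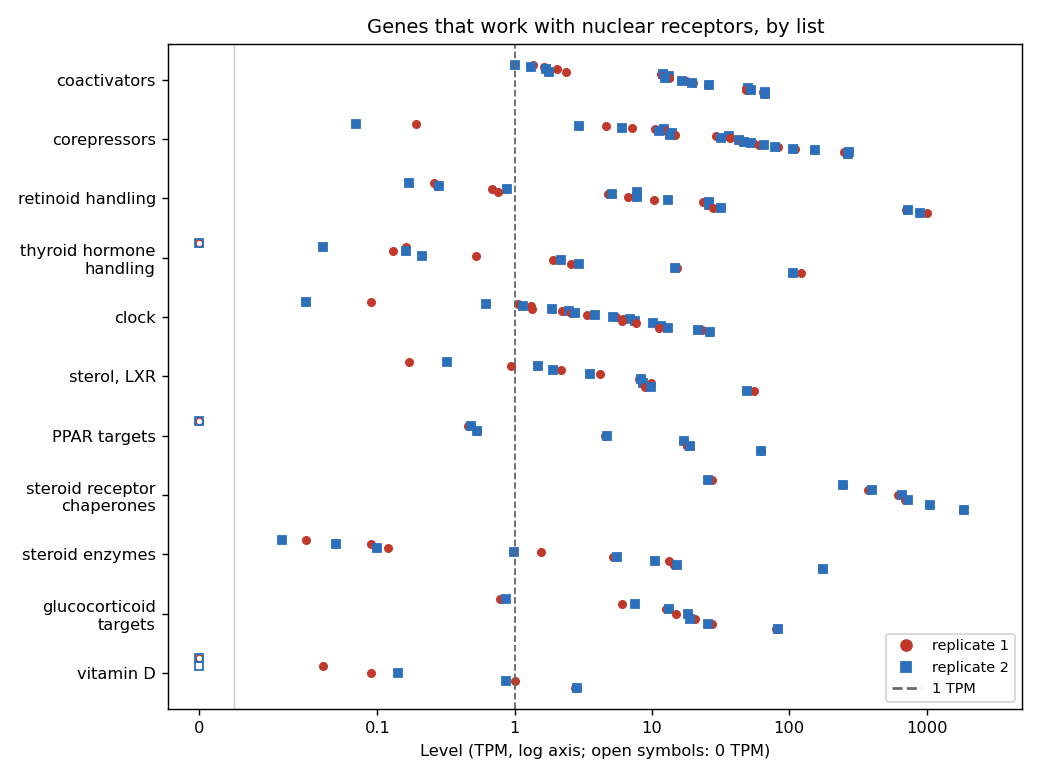
Level in TPM on a log axis of every measured gene of 11 lists that work with nuclear receptors, with a symbol for each library and open symbols for 0. The 14 coactivators all lie at or right of the 1 TPM line, the 7 chaperones lie between 25.6 and 1872 TPM, and 3 of the 5 vitamin D genes lie under 1 TPM in both libraries.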

How the data were processed

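Nuclear receptor genes were measured by total RNA-seq in 2 pooled forebrain libraries. Per the notes deposited with each sample, the tables rest on assembly mm10 and annotation M4; aligner, quantification tool and use of strand: not given in the sources used here. Deposited by the authors were expected counts (estimated reads, not normalized) and TPM for genes and transcripts, a posterior mean TPM, and, per the file headers, each transcript's percent of its gene. TPM is taken over all rows, spike-ins included, so abundant RNA of other cells, such as globin, lowers the rest.

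Members were matched by Ensembl identifier without its version, and coordinates are those of GENCODE M21 on GRCm38. The coding sequences are those of M21, in which 220 of the 239 member transcripts had the deposited length. Rows without an Ensembl identifier (26248 numbered rows and 97 controls, 3.45% and 3.07% of counts in replicates 1 and 2) entered no comparison. Detection means 1 TPM or more in both libraries. Ratios between libraries used expected counts plus 0.5 over library sizes scaled by TMM (edgeR 4.0.16, R 4.3.3, rounded counts, genes at 10 or more in each), with exact 95% binomial (Clopper-Pearson) intervals of counts rounded to whole numbers, and were tested on simulated data. DESeq2 1.42.0 gave size factors as an alternative. Python 3.11.15 did the rest.

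The members and all lists were chosen with earlier results of these data known. Named are all 46 members, the 4 highest and up to 4 undetected genes of each cofactor or pathway list, and marker lists by their sums. Top2b, Mrps25, Ocel1 and Tomm40l, which overlap members, and Aldh1a1, Star, Pou1f1 and Fgb were named after their values were seen. The coactivator Prmt1 was not analysed here, and some genes that this rule names are not reported. Alternatives were other detection limits, posterior mean TPM, TPM over annotated genes, other pseudocounts, no length adjustment, other scalings and count limits, and each library alone.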

Additional observations from a re-analysis of the deposited data

How the results depend on the processing

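Of 48 alternative values for the main results, 36 were classed as the same as the reported value. This class is wide: it includes 21 detected receptors at a limit of 2 TPM, against 27. It also includes 3 receptors past 1.5-fold with spike-in scaling, against 2. Each library alone gave 27 detected receptors, posterior mean TPM gave 28, and a limit of 5 TPM left 15. The lipid median was 0.66 TPM with posterior mean TPM, which gives genes without reads a small value, and 1.65 TPM over detected members only. Over detected members the medians were 8.68 TPM for thyroid, 3.72 TPM for steroid and 5.61 TPM for orphan receptors. With TPM over annotated genes only, the thyroid median was 4.87 TPM and the orphan median 3.01 TPM, since spike-ins leave the total. The count of receptors past 1.5-fold between libraries was 2, and became 4 at a mean count of 10 or more, 1 at 50 or more, 9 without a count limit and 1 at 2-fold. Over the pairs, 1 of 144 alternative ratios turned: Nr2f1 over Nr2f2 was -0.50 on the log2 scale without length adjustment. That setting also took Rora over Rorb to 0.09, and left 15 pairs with the first gene higher in both libraries, against 17. Scaling by spike-ins moved the median ratio of all genes by -0.17 on the log2 scale and gave a count of 3. Using 1 library in turn, class medians ranged from 4.27 to 4.76 TPM for thyroid, 15.3 to 18.9 TPM for retinoid, 0.16 to 0.20 TPM for lipid, 0.21 to 0.37 TPM for steroid and 2.64 to 2.95 TPM for orphan receptors. No paired analysis was possible because there is only 1 group. Depth limits genes with a mean count under 20, which entered no count of receptors past 1.5-fold at the reported setting.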
